A study of Homo sapiens with 8 samples.

Results

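Transcript abundance after loss of METTL5 was read from the input RNA of a ribosome profiling experiment, that is, from the part of each cell lysate that was not digested to ribosome footprints. The libraries were chosen by their labels as the input samples, 4 of the 8 samples of the series: 2 of METTL5-WT cells and 2 of METTL5-KO cells, with ribosome-protected fragments (RPFs) in the other 4. The cells were labelled HepG2, an established human liver cancer line, and both genotypes had been treated briefly with cycloheximide, which holds ribosomes on mRNA, before lysis in Triton X-100. METTL5-KO cells had been made with CRISPR/Cas9 and pairs of guide RNAs placed to delete internal exons of the gene, which the labels and the study's methods do not number alike. According to the study's methods each line was grown from a single isolated clone, so genotype and clone cannot be told apart, and the labels do not say whether the replicates came from separate cultures. All p-values below therefore measure the spread between these libraries. Because the lysates were cleared by centrifugation and depleted of rRNA, the counts hold cytoplasmic mRNA together with histone mRNA and small noncoding RNA without poly(A) tails.

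Of 60718 genes in the count table, 14054 had enough reads to be tested with edgeR's quasi-likelihood test, and 3051 of those lie outside the table of 11244 genes on which the translation efficiency (TE) of the study rests. The libraries held between 10710226 and 15307257 reads assigned to genes. A gene with few reads in both METTL5-WT libraries could be tested only through its level in METTL5-KO, and then had to be higher there. The reverse holds for genes with few reads in METTL5-KO. A gene was called when its Benjamini-Hochberg adjusted p was below 0.05, which 22.4% of tested genes met, 11.8% higher and 10.6% lower in METTL5-KO. Those shares are the background against which each group of genes below is read. How many tested genes have groups that do not overlap was not counted. Counts with a library left out rest on a genotype with a single library. Over all genes such counts fell without either METTL5-WT library and rose without either METTL5-KO library. The same moves in a list are therefore not particular to that list. The METTL5-KO replicates differed by more than the METTL5-WT replicates, with a chi-square of 15.3 per degree of freedom against 3.48 where counting noise alone would give about 1, and the difference between the METTL5-KO libraries followed the GC content of the transcripts (rank correlation of 0.52 across genes, which are not independent replicates).

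The label HepG2 was first set against the genes that define hepatocytes. ALB, the main protein of plasma, had 0, 0, 0 and 1 reads in METTL5-WT replicates 1 and 2 and METTL5-KO replicates 1 and 2, and AFP, its fetal relative, had 0, 0, 5 and 9. APOA1 had 0, 0, 0 and 2 reads, APOB 4, 2, 0 and 0, and HNF4A, the transcription factor on which hepatocyte identity rests, 0, 1, 1 and 0. No read fell on TTR, SERPINA1, FGB or CYP7A1 in any library. None of the 8 hepatocyte markers passed the filter on low counts, and none is in the TE table. The summed level of these 8 genes was at most 0.539 CPM (counts scaled to a normalised library size of 1000000 reads), at a depth of over 10710226 reads per library. A count of 0 allows up to 3 reads, and these limits cover counting error only.

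The same libraries were rich in other mRNAs. VIM, an intermediate filament protein of mesenchymal cells, had 13668, 12326, 16362 and 17631 reads, and the epithelial keratin KRT7 had 9810, 8808, 9231 and 12259. CPS1, the mitochondrial enzyme that opens the urea cycle, had 11151, 11102, 9229 and 10819. It belongs to the liver lists below, as does HPD with 979, 968, 1455 and 2124 reads, so not every liver gene was low. The labels and the 8 hepatocyte markers nonetheless went against each other in all 4 libraries. The cells are therefore called the libraries labelled HepG2 below, and no other name is given to them. Of the markers of other cell types, the 8 endothelial genes summed to between 5.23 and 11.6 CPM and the 11 macrophage and leukocyte genes to between 1.57 and 5.98 CPM. The 10 cholangiocyte genes summed to between 946 and 1110 CPM, most of it KRT7, and the 11 stellate cell and fibroblast genes to between 272 and 363 CPM. Of the tested markers of other cell types SOX9, ERG and COL1A1 rose and CSF1R, RGS5, PDGFRB and COL3A1 fell, and their part in the results below was not tested.

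**Figure D1:**
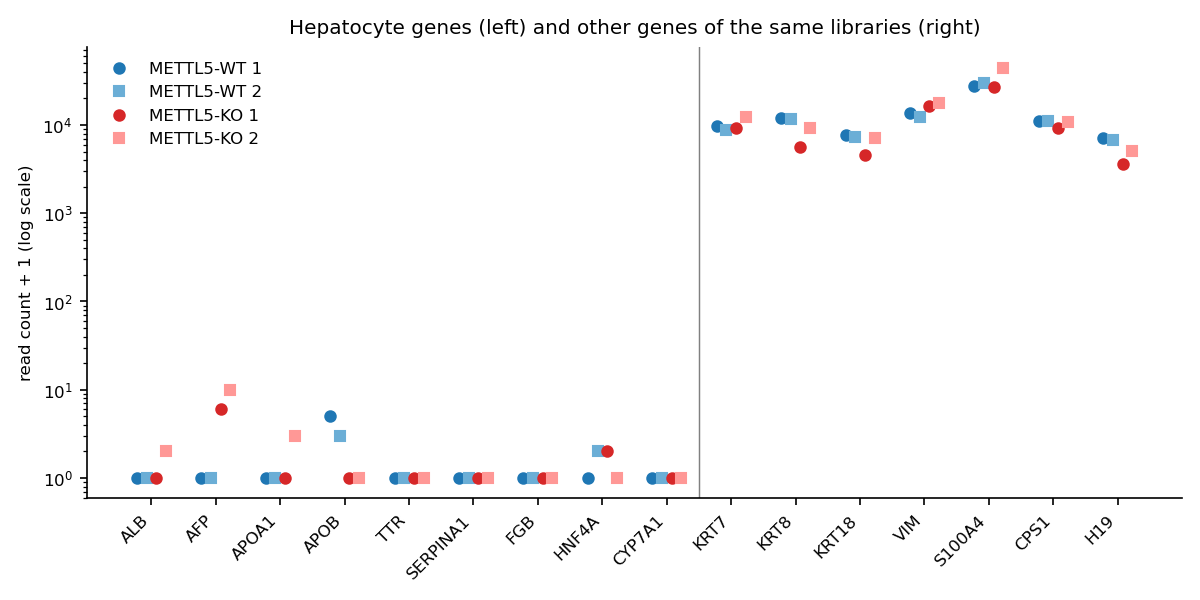
Read counts plus 1, on a log scale, of 9 hepatocyte genes (left of the line) and 7 other genes (right) in each of the 4 input libraries. The hepatocyte genes had between 0 and 9 reads in every library, whereas VIM had between 12326 and 17631. CPS1, drawn on the right, is also a member of the liver lists.

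METTL5 is the methyltransferase that places N6-methyladenosine on 18S rRNA, and TRMT112 is the partner that keeps it stable. METTL5 (chromosome 2, 169810081 to 169824931, hg38) had 490 and 542 reads in METTL5-WT against 208 and 151 in METTL5-KO. The groups did not overlap, and the difference of -1.86 on the log2 scale (SE 0.185, adjusted p = 7.17e-08) left reads in both METTL5-KO libraries. In the RPF libraries METTL5 stood at 39.8 and 49.2 RPM (reads scaled to a library of 1000000) in METTL5-WT and at 4.75 and 2.27 in METTL5-KO. TRMT112 had 161 and 173 CPM in METTL5-WT against 158 and 217 in METTL5-KO, and did not pass the test (log2 fold change 0.17, adjusted p = 0.388), although it did without METTL5-KO replicate 1 (0.39). The list of the METTL5 complex and of other RNA methyltransferases holds tRNA enzymes, TRMT11 and ALKBH8 among them, beside rRNA enzymes. Of its 14 tested members 4 fell and none rose. Beside METTL5, the targeted gene itself, these were NOP2, EMG1 and TRMT11. NOP2 and EMG1 lie on chromosome 12, on which calls are crowded (described below). Among the 10 members tested outside the crowded chromosomes, METTL5 and TRMT11 fell and none rose. EMG1, which methylates 18S rRNA, fell by 0.90 (adjusted p = 5.74e-06), from 108 and 103 CPM to 54.5 and 58.0.

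Of the lists with at least 10 tested members, that of interferon-stimulated genes had the largest median change. Cells that sense interferon, or foreign nucleic acid, switch on a set of antiviral genes through a complex that holds STAT2 and IRF9 and binds the interferon-stimulated response element in their promoters. Of the 54 listed genes 53 were tested, 51 rose in METTL5-KO and none fell, with a median log2 fold change of 1.73 (all genes tested, -0.004). The other 2, MX1 and ZC3HAV1, had log2 fold changes of 0.34 and 0.24. Summed over the list, the level went from 2080 and 2040 CPM in METTL5-WT to 4990 and 5290 CPM in METTL5-KO. The range within the list was wide: IFI6, an interferon-induced mitochondrial protein, had 29.7 and 29.7 CPM against 455 and 515, ISG15, a ubiquitin-like modifier, had 57.9 and 53.6 against 153 and 179, and BST2, which tethers budding viruses, had 251 and 248 against 320 and 395. In each of these the METTL5-KO libraries lay above both METTL5-WT libraries, a separation whose share over all genes was not counted. At the far end IFI44L went from 3 and 4 reads to 818 and 966 (log2 fold change 7.59, SE 0.265, adjusted p = 4.91e-16). GBP4 and MX2 had 0 reads in both METTL5-WT libraries and were at least 11.4-fold and 5.22-fold higher in METTL5-KO, against a floor of 3 reads per METTL5-WT library. With both genes set at those bounds the median of the list stayed at 1.73. Members near 0 in METTL5-WT, such as GBP4, MX2 and IFI44L, passed the filter only through METTL5-KO and had to be higher there.

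To show the element in these genes, the promoters (250 bases before to 50 after the RefSeq start, GRCh38.p14) were searched on both strands for the element, taken as GAAA followed after any 2 bases by a second GAAA. It was found in 31 of the 44 tested interferon-stimulated genes that have a promoter in the table (70.5%) and in 271 of 10112 promoters of all tested genes (2.68%). The match is a property of the listed genes and was not measured in these cells. The 3 most abundant risers with a match upstream of the start are shown, with the element in capitals: LGALS3BP at chr17:78979947-78980006, BST2 at chr19:17405720-17405785, where 2 matches overlap, and IFI6 at chr1:27672251-27672310, with 2 separate matches, all on the minus strand.
LGALS3BP: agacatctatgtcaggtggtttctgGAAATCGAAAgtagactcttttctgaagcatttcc
BST2: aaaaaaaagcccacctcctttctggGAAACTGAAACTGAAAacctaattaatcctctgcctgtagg
IFI6: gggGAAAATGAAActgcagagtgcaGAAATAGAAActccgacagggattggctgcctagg

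The machinery upstream of these genes moved with them in part. Of 28 tested genes of interferon signalling and RNA sensing, 13 rose and 2 fell, with a median of 0.47. IRF7, the factor that drives type I interferon genes, went from 11 and 10 reads to 209 and 321 (log2 fold change 4.27, SE 0.297, adjusted p = 1.77e-10). STAT2 and IFIH1, RIGI and DHX58, the last 3 of which are sensors of double-stranded RNA or their regulator, also rose, with log2 fold changes of 0.99, 1.61, 1.11 and 2.00. IRF9 rose from 1 and 5 reads to 27 and 18 (adjusted p = 0.0139). The receptors did not pass the test in either direction: IFNAR1, IFNAR2, IFNGR1 and IFNGR2 lay between -0.30 and 0.17. The 2 that fell were MAVS, the adaptor of the RNA sensors, on chromosome 20 (log2 fold change -0.68, adjusted p = 0.000412), and JAK1 (-0.32). Among 25 tested NF-kB and inflammatory genes 12 rose and 2 fell. TLR4, the receptor for lipopolysaccharide, went from 6 and 8 reads to 131 and 127, and the chemokine CXCL10, itself an interferon target, from 0 and 1 to 31 and 33, while RELB and NFKB2 had log2 fold changes of 1.62 and 0.91. TNFAIP8 and IL1RAP fell, by 0.79 and 0.53. IRF9, TLR4 and CXCL10, low in METTL5-WT, passed the filter only through METTL5-KO and had to be higher there.

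Antigen presentation on MHC class I rose along with the interferon-stimulated genes, most of its steps being known interferon targets. Of 21 tested genes 15 rose and 2 fell, with a median of 1.38. The heavy chains HLA-B and HLA-C stood at 46.2 and 47.4 and at 32.0 and 35.7 CPM in METTL5-WT. In METTL5-KO the same genes stood at 548 and 667 and at 218 and 284 CPM. The light chain B2M went from 994 and 968 CPM to 2845 and 2981 (log2 fold change 1.57, SE 0.117, adjusted p = 5.78e-10). Peptide supply rose as well: the transporter subunit TAP1 by 2.52, and the immunoproteasome subunits PSMB8 and PSMB9 by 3.97 and 3.42 on the log2 scale, PSMB8 from 60 and 41 reads to 922 and 1112. In the RPF libraries PSMB8 had 9.32 and 11.1 RPM in METTL5-WT against 203 and 213 in METTL5-KO. The 2 members that fell, PDIA3 and CALR, are general chaperones of the endoplasmic reticulum (ER) and are counted with those again below. The HLA genes are close copies of each other, so reads could be exchanged among them, and HLA-H, an HLA pseudogene, rose too (log2 fold change 2.21). In the proteasome list 7 of 39 genes rose and 2 fell, and the 4 largest log2 fold changes among the risers were those of PSMB8, PSMB9 and the PA28 activator subunits PSME2 and PSME1 (1.03 and 0.82). The 20S subunit PSMA7, on chromosome 20, fell by 0.86. The 7 risers became 4 without METTL5-WT replicate 1 and 12 without METTL5-KO replicate 1.

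With a library left out, the counts of the sensing and NF-kB lists changed by a larger share than those of the interferon-stimulated and MHC lists. Interferon-stimulated genes called higher numbered 44 without either METTL5-WT library and 52 and 51 without METTL5-KO replicates 1 and 2, and the MHC list gave 14 or 15. Leaving out chromosomes 11, 12, 16 and 20, on which calls are crowded (described below), left 39 of 42 interferon-stimulated genes called higher, beside 11.1% higher and 7.8% lower among the 11532 genes tested elsewhere. With the trend of fold change on GC content removed the list had 52 higher and 0 lower, beside 13.7% higher and 12.6% lower over all genes.

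**Figure D2:**
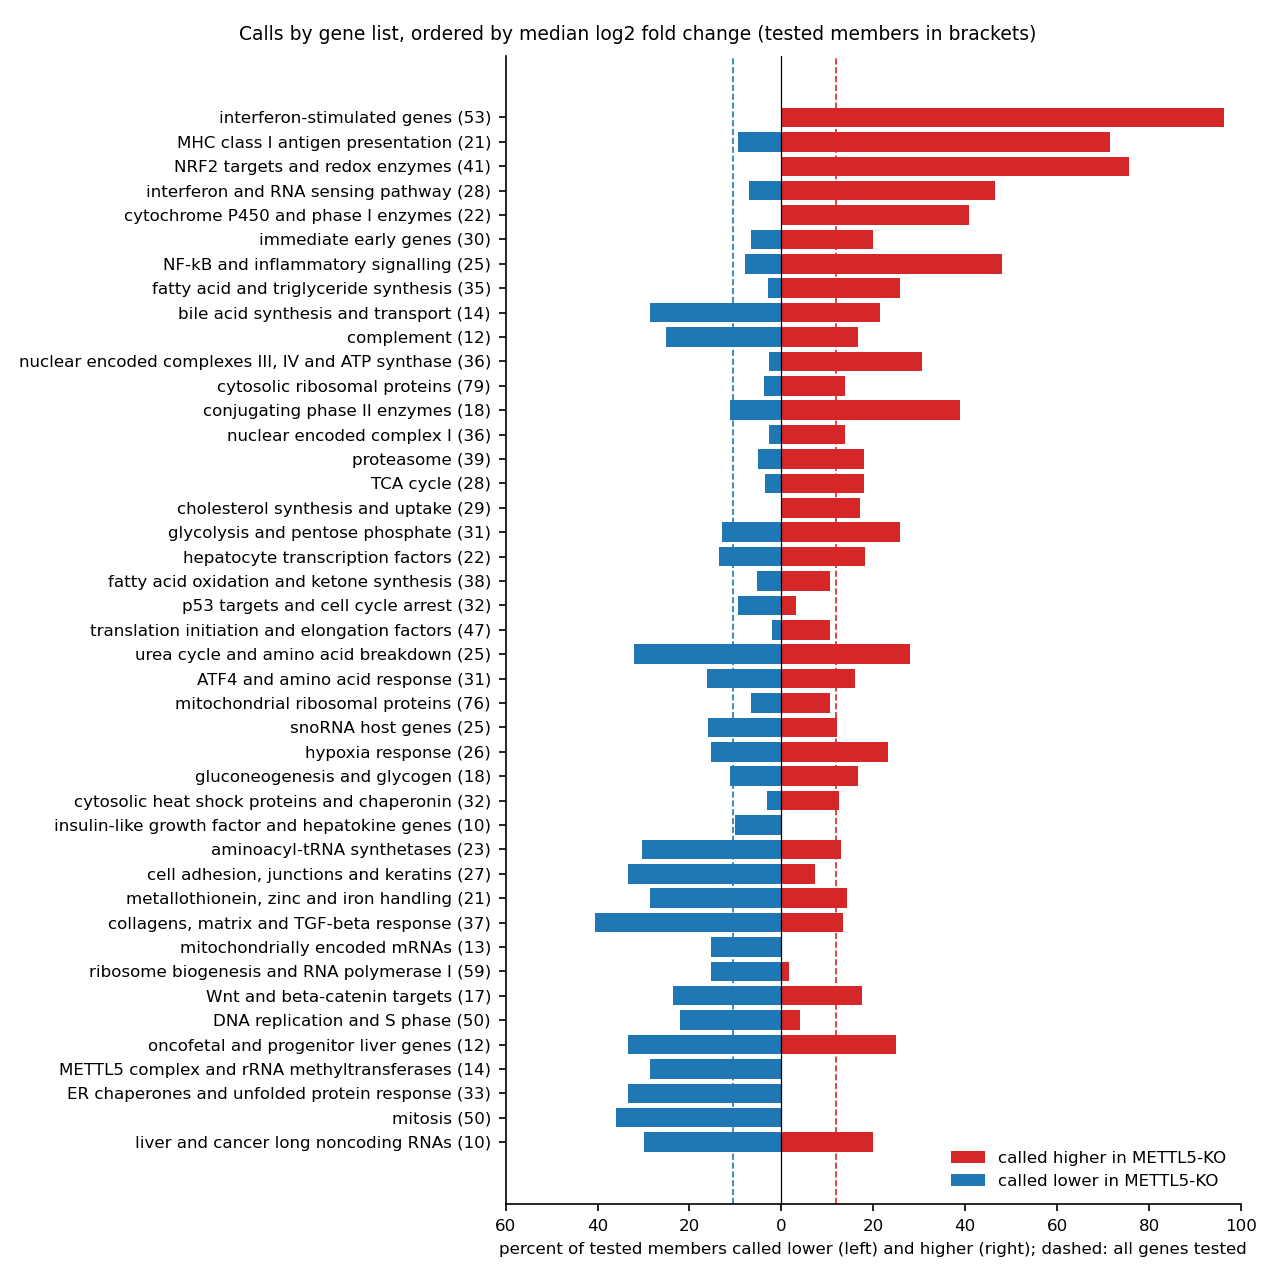
Percent of tested members called higher (red, right) and lower (blue, left) in METTL5-KO for the gene lists with at least 10 tested members, ordered by median log2 fold change. Dashed lines mark the shares over all genes tested, 11.8% higher and 10.6% lower.

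The second list that moved almost as a block was that of NRF2 targets and redox enzymes. NRF2 (NFE2L2) is the transcription factor released from KEAP1 under oxidative or electrophilic stress, and its targets make glutathione and NADPH and detoxify carbonyls. Of 41 tested genes 31 rose and none fell, with a median of 0.56, and the summed level went from 11800 and 11900 CPM to 18300 and 19900. The regulators themselves did not pass the test, with log2 fold changes of -0.21 for NFE2L2 and 0.16 for KEAP1. The aldo-keto reductases were at the top: AKR1C2 had 33.3 and 31.6 CPM in METTL5-WT against 496 and 523 in METTL5-KO (log2 fold change 3.97, SE 0.131, adjusted p = 2.06e-16). AKR1C1 and AKR1C3 rose by 2.71 and 1.92, and AKR1B10 went from 6 and 5 reads to 55 and 65. Being low in METTL5-WT, AKR1B10 passed the filter only through METTL5-KO and had to be higher there. AKR1C1, AKR1C2 and AKR1C3 are related copies of similar sequence, so how their reads divide is uncertain.

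The redox genes at higher abundance moved less far. In glutathione synthesis, GCLC and GCLM, the subunits of glutamate-cysteine ligase, rose by 1.25 and 0.74, and SLC7A11, which imports cystine, had 143 and 141 CPM against 430 and 371 (log2 fold change 1.49, adjusted p = 1.82e-09). TXN, thioredoxin, went from 455 and 446 CPM to 910 and 897, and HMOX1, heme oxygenase, from 16.8 and 18.1 to 39.0 and 40.7. NQO1, a standard NRF2 target, rose by 0.37 only, from 685 and 681 CPM to 913 and 858. Of the glycolysis and pentose phosphate list, 8 of 31 genes rose and 4 fell. TALDO1, PGD, PGLS and TKT, enzymes of the pentose phosphate pathway, of which PGD makes NADPH, were among the 8, with log2 fold changes of 1.14, 0.86, 0.75 and 0.49. TALDO1 had 284 and 302 CPM in METTL5-WT against 583 and 704 in METTL5-KO. LDHB and the glucose transporter SLC2A3, both on chromosome 12, fell by 0.70 and 0.46. The risers of that list numbered 3 without either METTL5-WT library and 12 without METTL5-KO replicate 1.

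Called redox genes numbered 19 without METTL5-WT replicate 1 and 19 without METTL5-WT replicate 2, and 36 and 33 without METTL5-KO replicates 1 and 2, with at most 1 fall in any of these. Outside chromosomes 11, 12, 16 and 20 the list had 24 risers among 33 tested. The core of the antioxidant response element, TGACNNNGC, was searched in the same promoters on both strands and was found in 5 of 29 of these genes (17.2%) and in 1555 of 10112 promoters of tested genes (15.4%), so in this window the listed genes did not stand out. No match says only that these letters are not in this stretch of sequence.

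Iron and zinc handling split by gene. FTL, the ferritin light chain, had 1148 and 1237 CPM in METTL5-WT against 2445 and 3442 in METTL5-KO (log2 fold change 1.30, SE 0.138, adjusted p = 1.98e-07), and FTH1, the heavy chain, 442 and 419 against 915 and 862. Per kilobase FTL was among the most abundant mRNAs, at 1369 CPM in METTL5-WT and 3379 in METTL5-KO. TFRC, the transferrin receptor that brings iron in, fell by 0.47, from 1586 and 1472 CPM to 1178 and 1025, and IREB2, an iron-regulatory protein, fell by 0.67. The metallothioneins MT1F, MT1X and MT1E, neighbouring genes on chromosome 16, fell by 1.81, 1.31 and 1.16, whereas MT2A of the same cluster did not pass the test (-0.24). In all, 3 of 21 tested genes of this list rose and 6 fell. In the RPF libraries FTL had 404 and 339 RPM in METTL5-WT against 488 and 514 in METTL5-KO.

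Among the chaperones of the ER the called genes were lower in METTL5-KO. Of 33 tested genes of ER folding and the unfolded protein response none rose and 11 fell, with a median of -0.25. HSPA5 (BiP), the main ER HSP70, had 630 and 606 CPM in METTL5-WT against 366 and 416 in METTL5-KO (log2 fold change -0.66, SE 0.116, adjusted p = 0.00019). MANF, a secreted ER stress protein, fell from 118 and 114 CPM to 71.02 and 67.9, and PDIA4, HERPUD1, HSP90B1, CALR and PDIA6 fell by 0.70, 0.62, 0.50, 0.40 and 0.40. ERO1B had the lowest value, -0.98. The members downstream of the other branches of the response did not pass the test, with XBP1 at -0.28, ATF4 at -0.01 and DDIT3 at 0.14. MANF in the RPF libraries had 105 and 96.5 RPM in METTL5-WT against 102 and 120 in METTL5-KO, which overlap. The number of ER genes that fell was 3 and 5 without METTL5-WT replicates 1 and 2, and 18 and 14 without METTL5-KO replicates 1 and 2. Cytosolic heat shock proteins and the CCT chaperonin stayed near the background, with 4 of 32 higher and 1 lower. HSP90AA1, the inducible HSP90, fell by 0.47 (2424 and 2370 CPM against 1775 and 1680), and the small heat shock proteins HSPB8 and HSPB1 rose by 0.77 and 0.57.

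The called genes of cell division were lower as well. Of 50 tested mitotic genes none rose and 18 fell, with a median of -0.25, and the summed level was 11200 and 10800 CPM in METTL5-WT against 9430 and 8830 CPM in METTL5-KO. HMMR, a microtubule-binding protein, had 41.1 and 35.3 CPM against 22.1 and 16.7 (log2 fold change -0.98, SE 0.163, adjusted p = 0.000101). TOP2A, the topoisomerase of dividing cells, fell from 708 and 653 CPM to 510 and 406, and the motor CENPE from 94.2 and 86.1 to 64.5 and 44.4. The kinase AURKA and its activator TPX2 fell by 0.94 and 0.85, and both lie on chromosome 20. Outside chromosomes 11, 12, 16 and 20 the list had 13 falls among 41 genes and a median of -0.25, beside 7.8% lower elsewhere. Members such as BIRC5, CDC20 and AURKB lay between -0.04 and 0.07 and were not called. Falls numbered 4 without METTL5-WT replicate 1, 5 without METTL5-WT replicate 2, and 31 and 22 without METTL5-KO replicates 1 and 2.

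DNA replication genes gave 2 higher and 11 lower of 50, with a median of -0.16. PCNA, the sliding clamp, had 522 and 498 CPM in METTL5-WT against 315 and 290 in METTL5-KO, and CCNE1, the cyclin of S phase entry, went from 127 and 90 reads to 55 and 82 (log2 fold change -1.02, adjusted p = 0.00625). All 4 subunits of the GINS helicase complex fell (GINS1, GINS2, GINS3 and GINS4, between -0.70 and -0.54), while the MCM2 to MCM7 helicase subunits, between -0.27 and 0.01, were not called. GINS1, PCNA and E2F1 lie on chromosome 20 and GINS2, GINS3 and ORC6 on chromosome 16. Outside the 4 crowded chromosomes 5 of 35 genes fell and 1 rose. The polymerase subunits POLD1 and POLE were the 2 that rose, by 0.55 and 0.41. Without METTL5-WT replicate 1 or 2 the falls numbered 5, and without METTL5-KO replicates 1 and 2 they numbered 21 and 17.

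**Figure D3:**
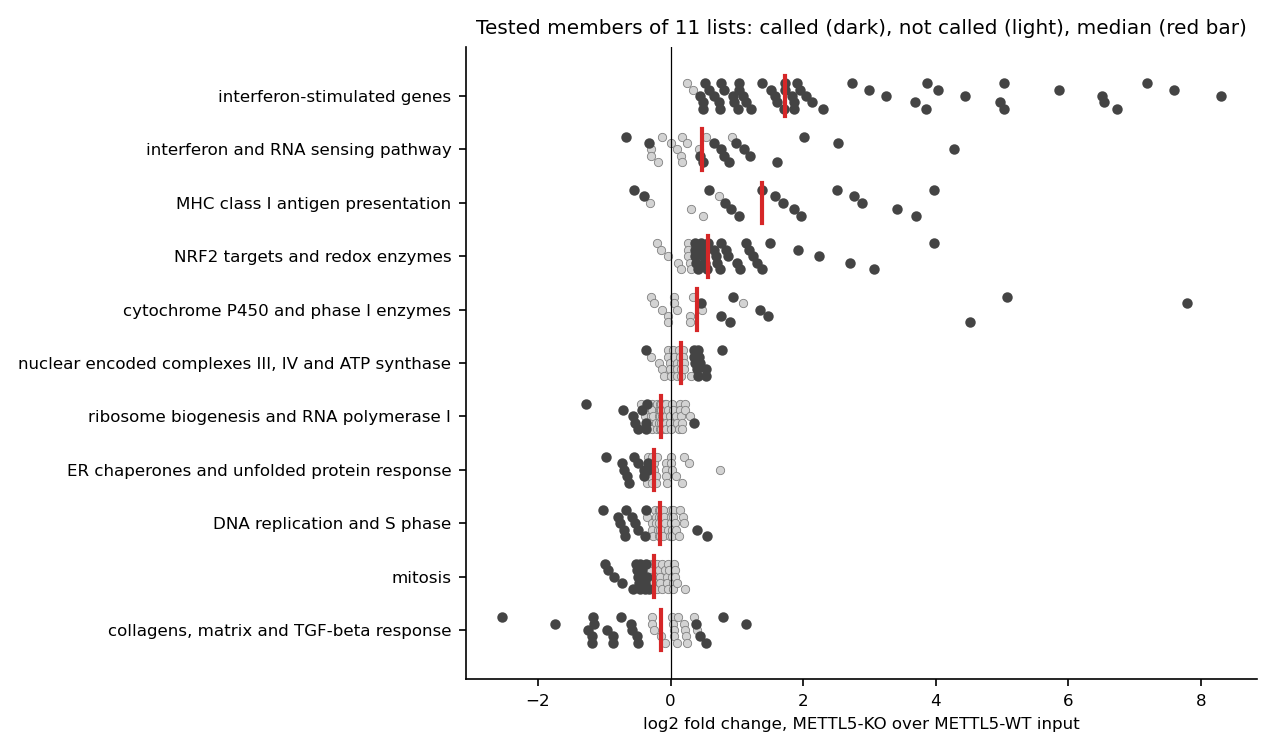
Log2 fold change, METTL5-KO over METTL5-WT input, of every tested member of 11 gene lists, with called genes in dark grey, genes not called in light grey and the list median as a red bar. The medians run from 1.73 for interferon-stimulated genes to -0.25 for mitosis and for ER chaperones.

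Because METTL5 acts on the ribosome, mRNAs of the translation machinery were described separately. The cytosolic ribosomal proteins stayed close together: of 79 genes 11 rose and 3 fell, with a median of 0.14, so 13.9% were higher beside 11.8% of all genes. The summed level was 33200 and 32400 CPM in METTL5-WT against 32100 and 38500 CPM in METTL5-KO, with the METTL5-KO libraries on both sides of METTL5-WT. RPS21 (log2 fold change -0.74, adjusted p = 8.31e-05), on chromosome 20, and RPL13, on chromosome 16, fell, and RPLP2 on chromosome 11 had the largest rise (0.50). The number of risers moved with the library left out. Without either METTL5-WT library, and without METTL5-KO replicate 1, it moved by a larger share than over all genes. RPS21 in the RPF libraries had 853 and 976 RPM in METTL5-WT against 484 and 474 in METTL5-KO.

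Of 59 ribosome biogenesis genes 1 was higher and 9 were lower, with a median of -0.15. NIP7, which acts in pre-rRNA processing, fell from 98.4 and 95.2 CPM to 58.8 and 59.2, and the snoRNP core protein NOP56 fell by 0.54. Of the 9, NIP7, UTP4 and NOB1 lie on chromosome 16, NOP2 on 12, NOP56 on 20 and NAT10 on 11, and outside those chromosomes 3 of 48 fell and 1 rose, beside 7.8% lower among all genes there. The fall of 9 became 1 and 3 without METTL5-WT replicates 1 and 2, and 21 and 13 without METTL5-KO replicates 1 and 2. Aminoacyl-tRNA synthetases and their scaffold proteins gave 3 higher and 7 lower of 23. AARS1 and KARS1, both on chromosome 16, fell by 0.82 and 0.55, and QARS1, VARS1 and CARS1 rose by 0.36, 0.43 and 0.47. The falls numbered 1 without METTL5-WT replicate 1 or 2. Of 47 tested initiation and elongation factors 5 rose and 1 fell. EEF2K, the kinase that restrains elongation, rose by 0.49 and its substrate EEF2 by 0.37, and EIF5B, which joins the ribosomal subunits, fell by 0.52. Without METTL5-WT replicate 1 or 2 no factor was called higher, and without METTL5-KO replicate 1 there were 15.

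For nuclear genes of the respiratory chain the counts of calls moved with the library left out. Without either METTL5-WT library a larger share of risers was lost than over all genes. In complexes III and IV and ATP synthase 11 of 36 rose and 1 fell, with a median of 0.16. ATP5F1D, a subunit of the ATP synthase stalk, had 38.5 and 41.5 CPM in METTL5-WT against 61.8 and 75.2 in METTL5-KO (log2 fold change 0.78, adjusted p = 0.000169), and COX4I1, on chromosome 16, fell by 0.37. The count of 11 was 1 without METTL5-WT replicate 1 or 2, 18 without METTL5-KO replicate 1 and 11 without METTL5-KO replicate 2. Complex I gave 5 higher and 1 lower of 36, the tricarboxylic acid cycle 5 and 1 of 28, and mitochondrial ribosomal proteins 8 and 5 of 76. Without METTL5-WT replicate 1 or 2 each of those 3 lists had 1 riser. The genome of the mitochondrion itself did not follow. Of its 13 mRNAs none rose and 2 fell, MT-ND6 by 0.88 and MT-CYB by 0.55, and without METTL5-KO replicate 1 there were 8 falls. MT-ND6, the only mRNA of the light strand, had 228 and 186 METTL5-WT and 160 and 125 METTL5-KO reads.

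Lipid and sugar metabolism moved in few genes. Cholesterol synthesis and uptake gave 5 higher and none lower of 29, with a median of 0.08. SC5D, the sterol desaturase of the last steps of the pathway, lies on chromosome 11, on which calls are crowded. It stood out with 49.9 and 55.8 CPM in METTL5-WT against 400 and 315 in METTL5-KO (log2 fold change 2.76, SE 0.136, adjusted p = 2.80e-13). In the RPF libraries it had 56.4 and 63.4 RPM against 416 and 435. HMGCS1, INSIG1 and LSS rose by 0.64, 0.62 and 0.61. Without METTL5-WT replicate 1 or 2 the risers numbered 2, and without METTL5-KO replicate 1 they numbered 11.

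Fatty acid and triglyceride synthesis gave 9 higher and 1 lower of 35, among them DGAT1, which makes triglyceride, the SREBP-1 gene SREBF1 and the acyl-CoA synthetase ACSL1 (0.55, 0.41 and 0.87). FASN, the fatty acid synthase, was not called (0.15, adjusted p = 0.375), and with the GC trend removed its sign turned to -0.12. The 9 risers were 1 and 2 without METTL5-WT replicates 1 and 2, 13 and 8 without METTL5-KO replicates 1 and 2, and 5 with the GC trend removed. Fatty acid oxidation gave 4 and 2 of 38. PPARGC1A, the coactivator of mitochondrial genes, had 31.6 and 37.0 CPM in METTL5-WT against 63.6 and 64.3 in METTL5-KO (log2 fold change 0.90, adjusted p = 2.88e-05). In gluconeogenesis and glycogen metabolism 18 of 28 genes were tested, with 3 higher and 2 lower. G6PC1 had no read in any library and PCK1 had 1, and the carboxylase PC fell by 0.59.

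Genes of differentiated liver function were in large part below the filter. The 11 lists of liver functions hold 363 genes, of which 139 were tested (38.3%) and 189 had at most 3 reads in every library. In the lists of mitochondrial and translation genes 99.0% were tested. Members that passed only through their level in METTL5-KO had to be higher there, so counts in these lists are given as they are. Plasma proteins were nearly silent: 22 of 26 had at most 3 reads in every library, and the 2 that were tested both fell. A2M, a broad protease inhibitor, had 830 and 723 reads against 31 and 19, and VTN, vitronectin, 164 and 186 against 42 and 43 (log2 fold changes -5.30 and -2.39). Of 28 apolipoprotein and lipoprotein genes 7 were tested, with APOL1, itself an interferon target, higher (1.56) and LRP1 lower (-0.81). Coagulation had 5 of 27 tested, with 1 called in each direction, PROS1 (protein S) being higher by 0.70. In the acute phase list 2 of 20 were tested, and STEAP4 fell by 0.88.

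Of 51 cytochrome P450 and phase I genes 22 were tested, 9 rose and none fell. Of the 9, CES1, CYP4F11 and CYP4F3 were near 0 in METTL5-WT and could be tested only through their level in METTL5-KO. CES1, the major carboxylesterase of liver, had 0 and 1 reads in METTL5-WT against 148 and 200 in METTL5-KO, a ratio of 272 (95% counting interval 48.4 to 10760). CYP4F11 went from 8 and 6 reads to 214 and 196, and CYP4F3, its close copy, from 0 and 1 to 26 and 26. ALDH2, ALDH3A1, ALDH3A2 and ALDH1B1, which oxidise aldehydes, rose by 1.47, 1.35, 0.90 and 0.46. The count of 9 stayed between 7 and 11 when any library was left out. Of the conjugating enzymes 18 of 40 were tested, 7 rose and 2 fell. GSTM4, a glutathione transferase, had 39.2 and 37.6 CPM against 78.1 and 82.3 (log2 fold change 1.06, adjusted p = 1.24e-06), and GSTP1 and GSTM3 rose by 0.65 and 0.62. MGST1, on chromosome 12, had the largest fall of the list at -8.57, with 1 and 12 reads left in METTL5-KO. Without METTL5-WT replicates 1 and 2 the risers of this list numbered 2 and 1.

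Bile acid synthesis and transport had 14 of 34 genes tested, with 3 higher and 4 lower. ABCC2, an export pump for conjugates, rose from 135 and 127 CPM to 195 and 190 (log2 fold change 0.56, adjusted p = 0.000879), and CYP39A1 rose from 11 and 12 reads to 94 and 68. SLCO2B1, an uptake carrier, had 0 reads in METTL5-WT against 11 and 21 in METTL5-KO, at least 4.08-fold higher. ATP8B1, a phospholipid flippase, fell by 1.64, and ABCB1, the multidrug pump, went from 42 and 41 reads to 0 and 1. CYP7A1, the rate-limiting enzyme of the pathway, had no reads.

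Urea cycle and amino acid breakdown were mixed, with 7 of 25 tested genes higher and 8 lower. CPS1 fell by 0.51, from 1003 and 1038 CPM to 725 and 711 (SE 0.113, adjusted p = 0.00199), and its call was lost in 2 of the alternatives tried beside a rule of at least 2-fold change, which it also misses. KYNU, of tryptophan breakdown and an interferon-responsive gene, went from 19.4 and 19.1 CPM to 50.5 and 41.1 (log2 fold change 1.25), and FAH and ASL rose by 0.96 and 0.73. GCSH, GPT2 and GOT2, which fell, are on chromosome 16. Without METTL5-WT replicate 1 or 2 the list had 2 higher and 3 lower. Of the complement list 12 of 34 genes were tested, with 2 higher, among them C1S (1.08), and CD59, CLU and CD55 lower (-0.59, -0.49 and -0.48), and none of the 3 falls was called without METTL5-WT replicate 1 or 2.

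Among hepatocyte transcription factors 22 of 37 were tested, 4 rose and 3 fell. CEBPA, which drives hepatic and adipose genes, had 184 and 170 reads in METTL5-WT against 71 and 102 in METTL5-KO (log2 fold change -1.40, SE 0.215, adjusted p = 4.00e-05), and ATF5 and TBX3 fell by 0.54 each. The nuclear receptors ESRRA and RXRA rose by 0.86 and 0.73, and the clock-related factors HLF and DBP by 1.97 and 0.69. Of the oncofetal genes 12 of 28 were tested. IGF2BP2, an RNA-binding protein of fetal growth, fell from 109 and 120 reads to 24 and 30, and SALL4, on chromosome 20, from 180 and 195 to 90 and 95. SOX9, a progenitor and duct factor, rose from 6 and 8 reads to 50 and 63 (log2 fold change 2.63), TSPAN8 from 0 in both METTL5-WT libraries to 28 and 36, at least 8.30-fold, and HMGA2 from 0 and 1 to 33 and 19. The last 2 lie on chromosome 12. SOX9, TSPAN8 and HMGA2, low in METTL5-WT, passed the filter only through METTL5-KO and had to be higher there. H19, the imprinted fetal lncRNA, fell from 638 and 625 CPM to 281 and 330 (log2 fold change -1.05, adjusted p = 5.30e-07).

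Of the matrix genes, 15 of 37 tested members of the collagen, matrix and TGF-beta list fell and 5 rose, with a median of -0.14. FN1, fibronectin, had 24.8 and 25.1 CPM in METTL5-WT against 8.01 and 6.90 in METTL5-KO (log2 fold change -1.75, SE 0.188, adjusted p = 2.57e-07). TGFB1 fell by 1.25, LOXL2, a collagen cross-linker, by 1.16, COL12A1 by 0.95, and the basement membrane chains COL4A1 and COL4A2 by 0.58 and 0.50. COL27A1, COL1A1, TIMP1, TWIST1 and TGFBR2 rose. VIM was level, at 0.04. Falls numbered between 11 and 18 when any library was left out, and 14 of 33 remained outside the 4 crowded chromosomes. In the RPF libraries FN1 had 12.8 and 8.06 RPM in METTL5-WT against 4.17 and 2.48 in METTL5-KO.

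Adhesion and keratin genes gave 2 higher and 9 lower of 27. F11R, a tight junction protein, went from 36.4 and 33.8 CPM to 14.2 and 12.7 (log2 fold change -1.39, adjusted p = 7.88e-07). The epithelial keratin pair KRT8 and KRT18, both on chromosome 12, fell by 1.04 and 0.74, KRT8 from 1070 and 1099 CPM to 446 and 606, while KRT7 was not called (-0.16). L1CAM fell by 1.06 and the integrin ITGAV by 0.56, and ITGA1 rose by 0.82. Of the 11 stellate cell and fibroblast markers, 6 were tested: RGS5, PDGFRB and COL3A1 fell and COL1A1 rose. Growth factor genes were mostly untested, with 10 of 31 passing the filter. IGFBP3, which binds insulin-like growth factors, was the only call, at 347 and 314 CPM against 116 and 110 (log2 fold change -1.54, SE 0.118, adjusted p = 8.58e-10). In the RPF libraries it had 214 and 173 RPM against 65.7 and 70.9.

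Other stress and signalling lists held few calls beyond the background or were split. Of 32 p53 targets 1 rose and 3 fell: ZMAT3, an RNA-binding p53 target, fell by 1.18, while CDKN1A and MDM2 were at 0.14 and -0.03. In the ATF4 list 5 of 31 rose and 5 fell, with SLC7A11 at the top and VLDLR at the bottom (-1.18), and in the hypoxia list 6 rose and 4 fell of 26, with EGLN3 at 1.20 and LOXL2 at -1.16. Immediate early genes gave 6 higher and 2 lower of 30, with DUSP4, a MAP kinase phosphatase, up from 16 and 7 reads to 97 and 94 and CCN2, a YAP target, down by 0.87. Wnt targets gave 3 higher and 4 lower of 17, with AXIN2, the negative feedback gene of the pathway, at 1 and 2 reads against 16 and 26 and the inhibitor DKK1 down by 0.99. Both AXIN2 and DUSP4, low in METTL5-WT, passed the filter only through METTL5-KO and had to be higher there. Counts this small moved with single libraries: without METTL5-WT replicates 1 and 2 the immediate early genes had 3 and 2 higher and without METTL5-KO replicate 1 they had 12, and the ATF4 list had 2, 2 and 10.

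Genes that are not protein coding made up 2449 of those tested, of which 181 rose and 84 fell (7.39% and 3.43%). The low abundance of most of them limits the test, since among the 2812 tested genes with the lowest mean counts 7.61% were called higher and 4.05% lower. Of 91 small nuclear RNAs (snRNAs), the RNA core of the spliceosome, 22 rose and 1 fell, with a median of 0.41. Of 95 snoRNAs and small Cajal body RNAs 10 rose and 1 fell, of 317 other small RNAs 12 rose and 2 fell, and of 706 pseudogenes 26 rose and 16 fell. The 1093 long noncoding RNAs (lncRNAs) had 97 higher and 51 lower and the 48 miRNA host genes and precursors 3 and 5. The 22 higher snRNAs became 15 without either METTL5-WT library and 29 and 16 without METTL5-KO replicates 1 and 2. In the same order the 10 higher snoRNAs became 2, 6, 14 and 3, the 12 other small RNAs 10, 15, 39 and 7, the 26 pseudogenes 13, 20, 37 and 32, and the 97 lncRNAs 44, 59, 119 and 74.

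**Figure D4:**
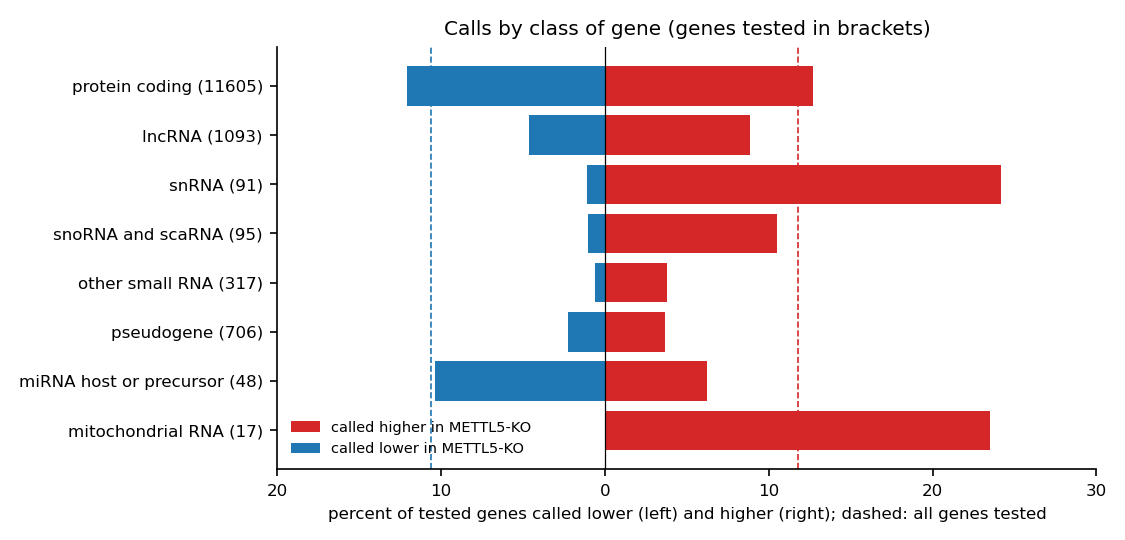
Percent of tested genes called higher (red, right) and lower (blue, left) in METTL5-KO by class of gene, with dashed lines at 11.8% and 10.6% for all genes tested. The snRNAs (24.2% higher, 1.1% lower) and the 17 rRNAs and tRNAs of the mitochondrion (23.5% higher, none lower) lie furthest to the right.

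Both tested U4 genes rose, and did so with any library left out. RNU4-1 and RNU4-2, the U4 genes next to each other on chromosome 12, had 165 and 129 and 184 and 161 CPM in METTL5-WT against 315 and 336 and 389 and 348 in METTL5-KO (log2 fold changes 1.14 and 1.09). RNU5A-1 and RNU5B-1, on chromosome 15, had 364 and 340 and 701 and 622 CPM in METTL5-WT against 740 and 808 and 1237 and 1160 in METTL5-KO (adjusted p = 1.08e-07 and 8.47e-06). All 4 genes were chosen after their values were seen. Of the 9 tested U5 genes 6 rose, of 34 U1 and variant U1 genes 11 rose and 1 fell, of 34 U2 genes 1 rose, and of 6 U6 genes none did. The U5 count stayed between 5 and 7 with a library left out, whereas the 11 U1 genes became 6 and 5 without METTL5-WT replicates 1 and 2, and 16 and 6 without METTL5-KO replicates 1 and 2. U1, U2 and U5 are multicopy families of similar sequence (RNU5A-1 and RNU5B-1 are identical at 94.0% of aligned positions), and only uniquely mapped reads were counted, so the division among copies is uncertain. Of the copies of 7SK, which restrains transcription elongation, and of the signal recognition particle RNA, most of them pseudogenes, 5 of 121 and 2 of 158 rose, and 16 and 15 did without METTL5-KO replicate 1. RN7SL1 had 5122 and 4318 CPM in METTL5-WT against 4211 and 7390 in METTL5-KO, the METTL5-KO libraries lying on both sides of METTL5-WT.

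Vault RNAs, the short RNA polymerase III transcripts that sit in vault particles, rose in all 3 tested copies, and the size of the rise differed between the METTL5-KO libraries. VTRNA1-1 had 218 and 206 CPM in METTL5-WT against 360 and 343 in METTL5-KO (log2 fold change 0.73, adjusted p = 4.81e-05). VTRNA1-2 had 454 and 633 against 904 and 1791, and VTRNA1-3 had 19.6 and 20.8 against 41.5 and 66.6 (log2 fold changes 1.31 and 1.42). The Y RNAs RNY1 and RNY4, bound by the Ro protein, rose too, but mainly through METTL5-KO replicate 2: RNY4 had 88.1 and 107 CPM in METTL5-WT against 104 and 237 in METTL5-KO, and RNY3 was level. The 3 vault RNA genes lie side by side on the plus strand of chromosome 5 (VTRNA1-1 at chr5:140711275-140711373, VTRNA1-2 at chr5:140718925-140719013 and VTRNA1-3 at chr5:140726158-140726246, hg38). Their sequences are printed because they show how alike the counted RNAs are, with the GTTCGA core of the internal B box, where polymerase III factors bind, in capitals.
VTRNA1-1: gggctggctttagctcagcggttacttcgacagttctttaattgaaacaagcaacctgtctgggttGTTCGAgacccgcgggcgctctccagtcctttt
VTRNA1-2: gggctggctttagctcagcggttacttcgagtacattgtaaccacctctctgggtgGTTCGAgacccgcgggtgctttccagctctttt
VTRNA1-3: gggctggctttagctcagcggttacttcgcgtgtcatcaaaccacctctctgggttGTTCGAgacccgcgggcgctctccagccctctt
The ends are shared and the middle differs, with 82.0% identity between VTRNA1-1 and VTRNA1-2 and 87.8% between VTRNA1-2 and VTRNA1-3.

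**Figure D5:**
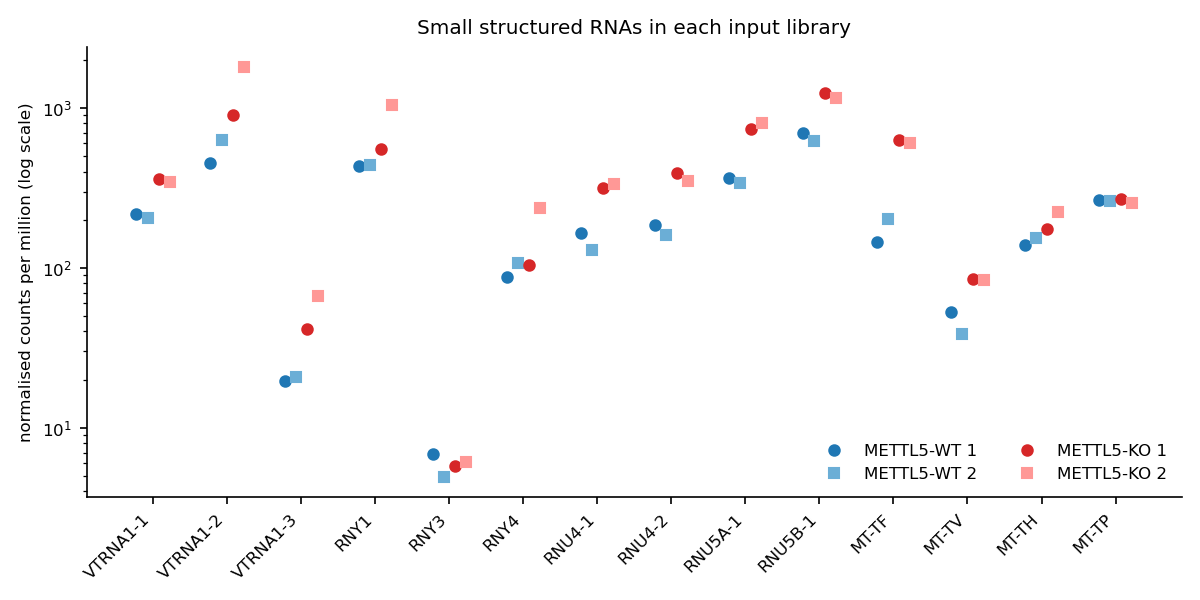
Normalised counts (CPM), on a log scale, of 14 small structured RNAs in each input library. The U4 and U5 snRNAs and MT-TF are higher in both METTL5-KO libraries, RNY4 mainly in METTL5-KO replicate 2, and MT-TP is level.

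Of 15 tested mitochondrial tRNAs 4 rose and none fell, with between 3 and 7 higher when a library was left out. MT-TF, the phenylalanine tRNA at the start of the heavy strand transcript (M, 577 to 647), had 146 and 202 CPM in METTL5-WT against 634 and 606 in METTL5-KO (log2 fold change 1.83, SE 0.136, adjusted p = 5.42e-10), and it kept its call in every alternative. Its sequence, a full length of 71 bases, is shown because no other mitochondrial RNA moved as far.
MT-TF: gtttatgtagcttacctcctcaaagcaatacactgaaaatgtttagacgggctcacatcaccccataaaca
MT-TV, the valine tRNA between both rRNAs, had 53.04 and 38.3 CPM against 85.3 and 84.2 (0.89), and MT-TH and MT-TI rose by 0.44 and 0.81, the last with overlapping CPM between METTL5-WT replicate 1 and METTL5-KO replicate 2. MT-TP and MT-TL1 were at -0.01 and 0.10. The 12S and 16S rRNAs that flank MT-TV, MT-RNR1 and MT-RNR2, were not called (-0.28 and -0.26), and mitochondrial reads in all made up 3.14%, 2.7%, 3.04% and 2.07% of the libraries.

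Long noncoding RNAs changed gene by gene. MALAT1, a nuclear RNA at high abundance, had 4708 and 4885 CPM in METTL5-WT against 2392 and 1863 in METTL5-KO (log2 fold change -1.17, SE 0.128, adjusted p = 3.20e-07), whereas NEAT1, which builds paraspeckles, was not called (158 and 185 against 138 and 140). Of 7 tested nuclear-retained lncRNAs 2 fell, MALAT1 and FTX. Since the lysate was cleared, the level of such RNAs also depends on how many nuclei opened, which was not tested. The largest rises were SLCO4A1-AS1, on chromosome 20, from 1 and 2 reads to 458 and 727 (a ratio of 308, 95% counting interval 105 to 1498), HCP5, which lies among the MHC class I genes, from 36 and 28 to 239 and 358, and LINC00707 from 29 and 19 to 174 and 127. Near 0 in METTL5-WT, SLCO4A1-AS1 passed the filter only through METTL5-KO and had to be higher there. LUCAT1, an NRF2- and interferon-responsive lncRNA, went from 6.74 and 8.04 CPM to 16.3 and 19.5 (log2 fold change 1.28). The largest falls were LINC01429, on chromosome 20 (-1.86), ENSG00000278133 on chromosome 16 (-1.54) and TPBGL-AS1 on chromosome 11 (-1.32). Of 25 tested snoRNA host genes 3 rose and 4 fell: SNHG15 rose by 0.66, SNHG17, on chromosome 20, fell by 1.15, and GAS5 was level at 0.01.

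The remaining noncoding classes are described by their largest changes. Among snoRNAs the largest rises were a U8 copy (1.31), SNORD13 (0.93) and SNORA53 (0.76), and SNORD4A was the only fall (-0.75). SNORA53 and SNORD4A lost their call in 3 and 5 alternatives, not counting a rule of at least 2-fold change, which both also miss. Among pseudogenes HLA-H, NMRAL2P and the ferritin light chain copy FTLP3 rose by 2.21, 1.73 and 1.55. HLA-H and FTLP3 resemble HLA genes and FTL, which also rose, so their reads may belong to those. ENSG00000216775, KRT8P36 and HSP90AB2P fell by 1.33, 1.00 and 0.78. Of the miRNA hosts MIR4435-2HG rose by 0.64 and MIR17HG, MIRLET7I and MIR1915HG fell by 1.03, 0.91 and 0.71, each losing its call in 1 or more alternatives other than that rule.

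Of the 3051 tested genes outside the TE table, 301 rose and 123 fell (9.87% and 4.03%). Of the 623 protein coding genes among them 124 rose and 42 fell (19.9% and 6.74%). They are low in these cells, and a gene that is near 0 in METTL5-WT can be tested only if it is high in METTL5-KO. TACR1, the substance P receptor, had 0 reads in METTL5-WT against 104 and 147 in METTL5-KO, at least 32.4-fold higher, and CES1, described above, was also among the 4 largest rises. XAF1, an interferon-induced antagonist of apoptosis inhibitors, had 2 and 0 against 128 and 174, and MECOM, a zinc finger transcription factor, 0 and 2 against 112 and 161. The largest falls were smaller: the transcription cofactor LBH by 1.04, the read-through gene DUS4L-BCAP29 by 0.95, FNDC10 by 0.88 and the clock-related repressor BHLHE41 by 0.80. Their calls were lost in between 2 and 5 alternatives other than a rule of at least 2-fold change. Without METTL5-KO replicate 2 the balance outside the table was 255 higher and 152 lower, and without METTL5-WT replicate 1 it was 187 and 60.

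Calls were not spread evenly over the genome, which bears on each list above. On chromosome 20, 170 of 381 tested genes fell (44.6%) with a median of -0.43, and the summed level of the chromosome was 25130 and 25060 CPM in METTL5-WT against 17680 and 18270 in METTL5-KO. On chromosome 16, 29.8% fell with a median of -0.24, on chromosome 12, 18.0% fell, and on chromosome 11, 162 of 771 rose. Among the genes named above, IRF7, TALDO1 and ESRRA rose and MALAT1, H19 and PC fell on chromosome 11. A2M and LRP1 fell and C1S and HSPB8 rose on chromosome 12. Chromosome 19, rich in GC, had 18.8% higher, which went to 122 of 880 genes with the GC trend removed, from 165. Whether the METTL5-WT and METTL5-KO clones carry the same number of copies of these chromosomes was not tested.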

How the data were processed

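Input RNA of 2 METTL5-WT and 2 METTL5-KO libraries was measured by RNA sequencing. The deposited counts are whole reads per gene: per the file headers and the study's methods the authors aligned reads to hg38 with STAR 2.7.3a, kept uniquely mapped reads and counted exons on the sense strand with featureCounts (v2.0.1 in the header, 1.6.0 in the submitters' processing notes). For RPFs the authors deposited read counts divided by a size factor for each library, a normalised signal. Whole reads were recovered from it for 100.0% of values (within 0.05 reads), rescaled to RPM (reads scaled to a library of 1000000), and given as values without a test. The authors' own fold change and p-value columns were not used.

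Counts were tested in R 4.3.3 with edgeR 4.0.16 (TMM normalisation, filterByExpr, quasi-likelihood F-test, Benjamini-Hochberg adjustment over 14054 genes, p below 0.05), on the 4 input libraries alone. CPM values use the TMM-scaled library sizes. The script was tested on simulated data. With 2 libraries per group an exact permutation test of a single value cannot go below p = 0.333, so none was used. Genes were described by class (GENCODE release 44) and in 53 lists of pathways, liver functions and markers. The members and lists were chosen with earlier results of these data known. The text names METTL5, a fixed set of liver and lncRNA genes, the called member with the largest rise and fall of each list and noncoding class and of the genes outside the TE table among those with a mean of at least 50 reads. Other list members and small RNA families named beside the counts were chosen after their values were seen. Replicate numbers did not pair the libraries (correlation of the replicate differences 0.019). A gene broken over 3 lines of the table was left out, and intervals and floors cover counting error only. Alternatives were DESeq2 1.42.0, limma-voom (limma 3.58.1), other scaling, other filters, removal of the trend on transcript GC content, removal of 4 chromosomes, and leaving out each library. Results on some genes are not reported here.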

Additional observations from a re-analysis of the deposited data

How the results depend on the processing

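Over all genes 3149 were called, and the other tools, scalings and filters on low counts gave between 2165 (DESeq2) and 3698 (GC trend removed). Requiring a 2-fold change left 883, of which 63.3% were higher against 52.6% in the main analysis, and leaving out each library in turn gave between 1257 (without METTL5-WT replicate 1) and 5490 (without METTL5-KO replicate 1). With a replicate block the count was 3554, and with the block and the GC trend removed 4448. Of genes outside the TE table, 424 were called, 208 with DESeq2, 198 with a mean of at least 50 reads and between 247 and 542 with a library left out. Among noncoding genes 265 were called, 112 with DESeq2, 159 with a mean of at least 50 reads, 165 with a 2-fold change and between 131 and 367 with a library left out (without METTL5-KO replicate 2 56.9% of calls were higher, against 68.3%). A replicate block gave 477 and 312 for these sets. The cause was not tested, except that a stricter filter leaves fewer genes (809 and 660) to be called. Of 118 named genes with a call 68 kept it in every alternative other than the 2-fold rule, and the losses fell mainly on the settings without METTL5-WT replicate 1 (41 genes) or 2 (28) and on DESeq2 (24). The sign turned for genes that were not called: FASN with the GC trend removed (-0.12, with a replicate block as well -0.12), the GAS5 log2 fold change without METTL5-WT replicate 2 or METTL5-KO replicate 2 (-0.0359 and -0.0142, range with a library left out -0.0359 to 0.05505), and the TRMT112 log2 fold change without METTL5-KO replicate 2 (range with a library left out -0.0759 to 0.3905, the upper value, without METTL5-KO replicate 1, being called). Depth limits mostly the liver lists and the noncoding classes, where a change in a gene with few reads was not detectable.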

Other observations

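Replication-dependent histone genes, whose mRNAs carry no poly(A) tail and were kept in these libraries, were looked at after their values had been seen, because H2AC12 was among the 20 most abundant mRNAs per kilobase and fell. Of 66 such genes 53 were tested, 44 of them on chromosome 6, and 27 were higher and 11 lower in METTL5-KO. Reads on the whole group made up 1.5% and 1.51% of METTL5-WT and 1.62% and 2.0% of METTL5-KO libraries. H2AC12 had 6314 and 6239 reads in METTL5-WT against 1351 and 1977 in METTL5-KO (log2 fold change -2.28, edgeR's adjusted p = 2.13e-12), and H2AC17 and H2AC13 fell by 2.02 and 1.78. H2AC4 and H4C5 rose by 0.73 and 0.68, and H4C14, on chromosome 1, went from 10 and 11 reads to 60 and 66. Histone genes are close copies of each other, so the division of their reads is uncertain.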
